A study of Ceratopteris richardii with 15 samples.

Results

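In sporophytes of the fern Ceratopteris richardii, 124 of 88641 genes were high in the growing root tip and in the mature leaf and low in the root behind its tip and in the leaf tip. Tip and mature tissue thus ranked in opposite order in the root and in the leaf. They were chosen from the deposited TPM values (a relative abundance corrected for gene length, in which each library sums to 1000000). The lower of the root tip and leaf means had to reach 5 TPM and 2 times the higher of the root and leaf tip means, and the root tip and leaf means had to lie within 3-fold. The level in the shoot tip was left free. No gene had to be dropped for number, as the limit of 300 was not reached.

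All plants were wild type RNWT1 and were sampled 50 days after spore germination, as 3 libraries each of shoot tip, root tip, leaf, root and leaf tip, 15 in all. Leaf and root mean here the organs without their tips. No treatment or mutant entered the series. The labels do not say how many plants made up a library or whether replicates came from separate plants, so p-values measure only the spread between these libraries, which may be technical. For each gene that spread was estimated over all 15 libraries together. It is therefore not the spread of the compared tissues alone, and a spread-out root library also enters comparisons without root. Each library was whole dissected tissue. In such bulk samples, fewer cells of a type and less RNA per cell cannot be told apart.

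In ferns each growing organ has an apical cell at its tip, whose divisions leave maturing tissue behind. The root tip also carries the root cap, which covers the apical cell, and the root behind it bears the root hairs and the mature vascular strand. The tip of a fern leaf uncoils last and goes on forming new tissue while the older leaf behind it already photosynthesises. The shoot tip holds the shoot apex, from which new leaves arise.

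The identifiers have the form written by the Trinity assembler and are paired with no gene name. Of the table's identifiers 0 matched the 36816 genes of the reference annotation. The 124 genes thus appear under their identifiers, without location, sequence or known role, and the tissue labels could not be checked against named marker genes. Where close copies of a gene share reads, its value is uncertain. Root replicate 3 differed from root replicates 1 and 2, as described further on for the 124 genes.

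Of 15227 genes with at least 5 TPM in both root tip and leaf, 163 had both of these means at least 2 times above both root and leaf tip. The limit on the ratio of root tip to leaf removed 15 genes with the higher level in root tip and 24 with the higher level in leaf, which left the 124. Over these 124 genes the median level was 20.9 TPM in root tip and 19.8 TPM in leaf, against 2.55 TPM in root and 3.14 TPM in leaf tip. The shoot tip median was 7.21 TPM. All of these levels except that of the shoot tip were used to choose the genes and are a description. By the lower of the root tip and leaf means, 11 genes were at 100 TPM or more, 76 were at 10 to 100 TPM and 37 were at 5 to 10 TPM.

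The ratio that chose the genes had a median of 3.07 and reached 188.3, given here with 0.1 TPM added to both means. The cut-off of 2 times was applied without the added 0.1 TPM. It was 3 or more for 63 genes, 5 or more for 28 and 10 or more for 14. At the lower edge, RT_TRINITY_DN70528_c0_g1 averaged 13.1 TPM in root tip and 12.8 TPM in leaf, against 0.773 TPM in root and 6.36 TPM in leaf tip, a ratio of 1.99 after the added 0.1 TPM. Just outside stood RO_TRINITY_DN191010_c0_g1, with 77.2 TPM in root tip and 92.2 TPM in leaf, against 38.9 TPM in root and 11.8 TPM in leaf tip, a ratio of 1.98.

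**Figure D1:**
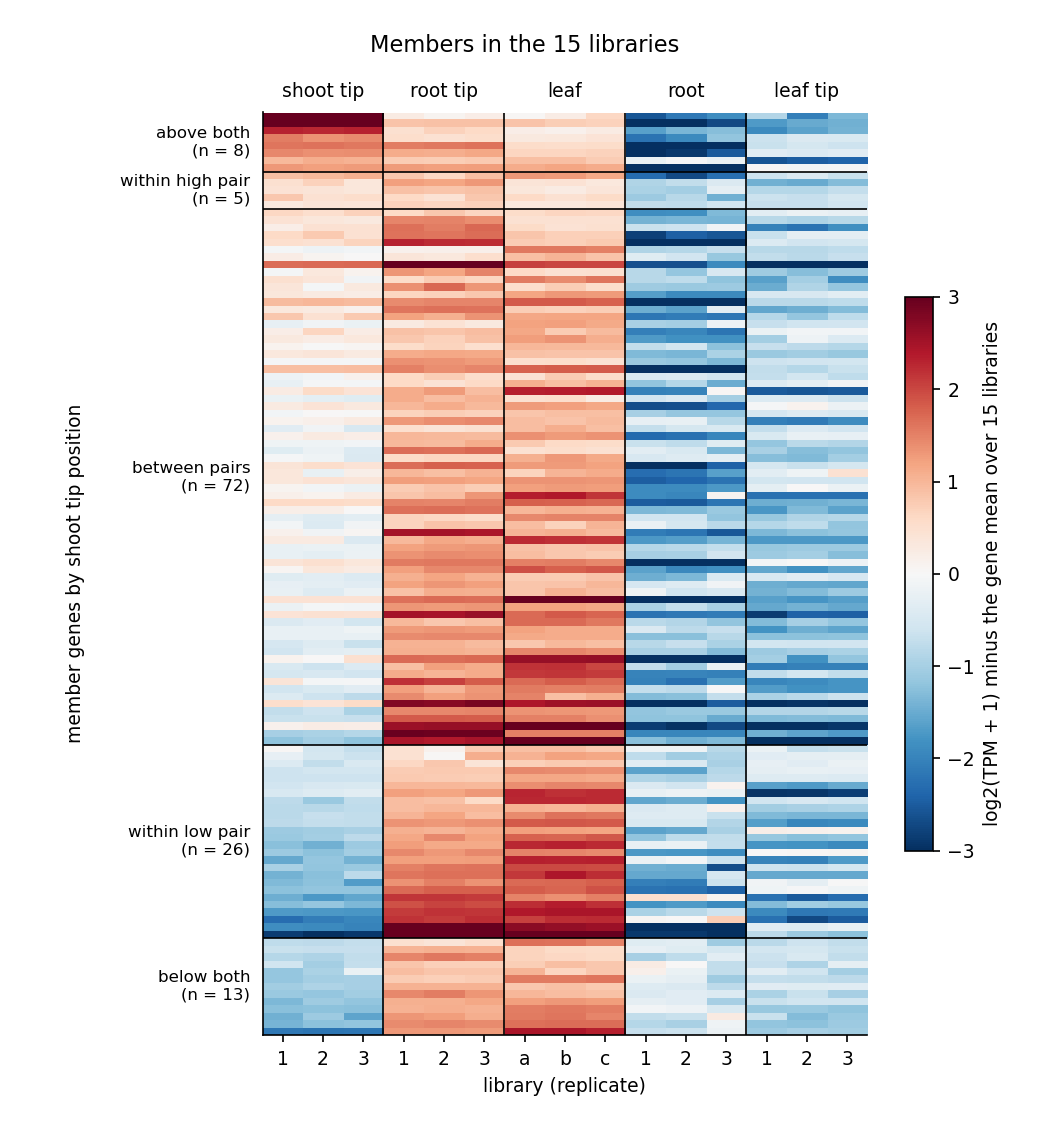
Levels of the 124 genes (rows) in the 15 libraries (columns), as log2(TPM + 1) minus the gene's mean over all libraries, with colours limited to 3 units either way. Rows are grouped by where the shoot tip mean lay, from above both root tip and leaf (8 genes, top) to below both root and leaf tip (13 genes, bottom); the root tip and leaf columns are red and the root and leaf tip columns blue because the genes were chosen so.

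A pair of genes showed the pattern nearly as presence and absence. RT_TRINITY_DN577_c0_g1 had the largest ratio, 188.3. It held 53.3, 51.65 and 56.29 TPM in the root tip libraries and 42.1, 45.24 and 46.03 TPM in the leaf libraries. In root it was listed at 0 in replicates 1 and 2 and at 0.41 TPM in replicate 3, and the leaf tip libraries held 0, 0.04 and 0 TPM. The shoot tip lay in the gap between these groups, at 10.57, 9.64 and 10.89 TPM. LE_TRINITY_DN2946_c0_g1 followed with a ratio of 128.6. It averaged 56.5 ± 1.12 TPM in root tip and 81.8 ± 1.05 TPM in leaf, against 0.34 ± 0.121 TPM in root and 0.147 ± 0.0982 TPM in leaf tip (SD, n = 3 each). Its shoot tip libraries, at 9.49, 10.08 and 10.02 TPM, again overlapped with neither group.

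Another 3 genes were listed at 0 in all 3 leaf tip libraries and were picked out after their values were seen. RT_TRINITY_DN63998_c0_g1 averaged 5.94 TPM in root tip and 14.0 TPM in leaf, against 0, 0.04 and 0.25 TPM in root, the last in replicate 3. RT_TRINITY_DN22193_c0_g1 averaged 8.11 TPM in root tip and 12.9 TPM in leaf, and in root it was listed at 0 in replicates 1 and 2 and at 1.05 TPM in replicate 3. RT_TRINITY_DN7251_c0_g1 averaged 8.78 TPM in root tip and 22.4 TPM in leaf, against 0.28, 0.23 and 4.04 TPM in root. Its root mean of 1.52 TPM thus rests on replicate 3. None of the 124 genes was listed at 0 throughout root, although 36 had a root mean under 1 TPM and 28 a leaf tip mean under 1 TPM.

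The most abundant gene was LE_TRINITY_DN17701_c3_g1. It held 14360.96, 14428.43 and 14526.51 TPM in root tip and 11845.82, 11530.06 and 11641.28 TPM in leaf. The root libraries held 2249.6, 2256.04 and 3019.28 TPM, the highest in replicate 3, and the leaf tip libraries 2271.3, 2286.67 and 2298.92 TPM. In the shoot tip it was at 4580.51, 4560.09 and 4580.15 TPM, between the high and the low tissues. It is thus high throughout the plant and differed between tissues in degree, unlike the genes just described. The second by level, LA_TRINITY_DN3420_c0_g1, averaged 523.5 ± 22.4 TPM in root tip and 392 ± 9.1 TPM in leaf, against 125.1 ± 5.48 TPM in root and 100.4 ± 2.3 TPM in leaf tip (SD, n = 3 each). Its shoot tip mean was 187.7 ± 0.52 TPM.

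The 124 genes together made up 1.97% ± 0.0125 of all TPM in root tip and 1.73% ± 0.0177 of all TPM in leaf, against 0.332% ± 0.0473 in root and 0.326% ± 0.00281 in leaf tip. In shoot tip they held 0.679% ± 0.000540 (SD, n = 3 each). LE_TRINITY_DN17701_c3_g1 made up most of these sums. Without it the shares were 0.526% ± 0.00422 in root tip and 0.562% ± 0.00473 in leaf, against 0.0813% ± 0.00306 in root and 0.097% ± 0.00149 in leaf tip, with 0.222% ± 0.000940 in shoot tip.

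Within the high pair neither tissue led throughout. The root tip mean was above the leaf mean in 56 genes and below it in 68. In 77 genes the difference was at most 1.5-fold. Of those more than 2-fold apart, 9 had more in root tip and 14 had more in leaf. LE_TRINITY_DN1040_c0_g1 leaned to the root tip, with 293.35, 295.53 and 289.41 TPM there and 141.27, 135.69 and 129.27 TPM in leaf. LA_TRINITY_DN4255_c0_g10 leaned to the leaf, with 143.12, 143.96 and 139.92 TPM in root tip and 320.58, 319.98 and 294.54 TPM in leaf. Calls for root tip against root and for leaf against leaf tip follow from the choice of genes. Of the 124 genes 120 were called higher in root tip than root, where 18.8% of all 39490 tested genes were, and 119 were called higher in leaf than leaf tip, where 11.2% were. Every root tip and leaf library lay above every root and leaf tip library in all 124 genes. The choice favours this too, and the share over all tested genes was not counted. In the mirror pattern described further on, chosen by the same rule, the high and low libraries were likewise apart in 108 of 114 genes. A gene was tested if it reached 1 TPM in 3 or more libraries, which all 124 did because of their level in root tip and leaf. It was called at an adjusted p under 0.05 and at least 2-fold on the log2(TPM + 1) scale in limma, with Benjamini-Hochberg adjustment over all tested genes.

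**Figure D2:**
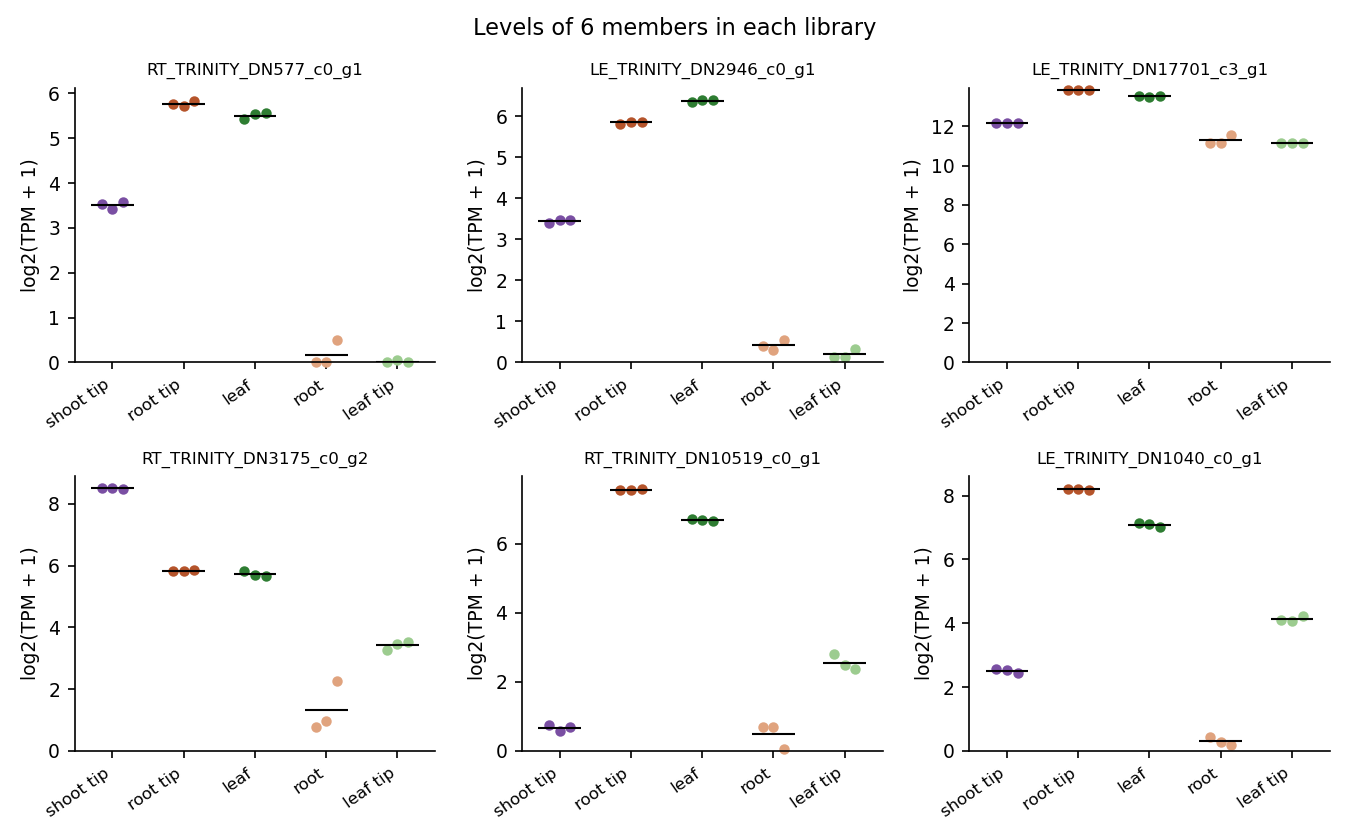
Levels of 6 of the 124 genes in each library, as log2(TPM + 1), with a point for each of the 3 libraries per tissue and a bar at their mean. RT_TRINITY_DN577_c0_g1 and LE_TRINITY_DN2946_c0_g1 are near 0 in root and leaf tip, LE_TRINITY_DN17701_c3_g1 is high in every tissue, and the lower row shows genes with shoot tip levels of 362.4 TPM (RT_TRINITY_DN3175_c0_g2), 0.597 TPM (RT_TRINITY_DN10519_c0_g1) and 4.73 TPM (LE_TRINITY_DN1040_c0_g1).

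The shoot tip, whose level played no part in the choice, was intermediate in most of the genes but not in all. Its mean lay between the high pair and the low pair in 72 of the 124 genes. In 26 genes it lay within the range of root and leaf tip, and in 13 it was below both. In 5 genes it lay within the range of root tip and leaf, and in 8 it was above both. The shoot tip level was a median of 0.43 times the lower of the root tip and leaf means, with a range of 0.0059 to 8.84 times. It was a median of 1.44 times the higher of the root and leaf tip means, with a range of 0.122 to 75.9 times. These positions rest on means and carry no test. The choice opened a gap of at least 2-fold between the pairs, so a shoot tip level inside that gap is partly favoured by it. In the mirror pattern described further on, chosen by the same rule, the shoot tip lay between the pairs in 58 of 114 genes. The share over genes not chosen in this way was not counted.

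**Figure D3:**
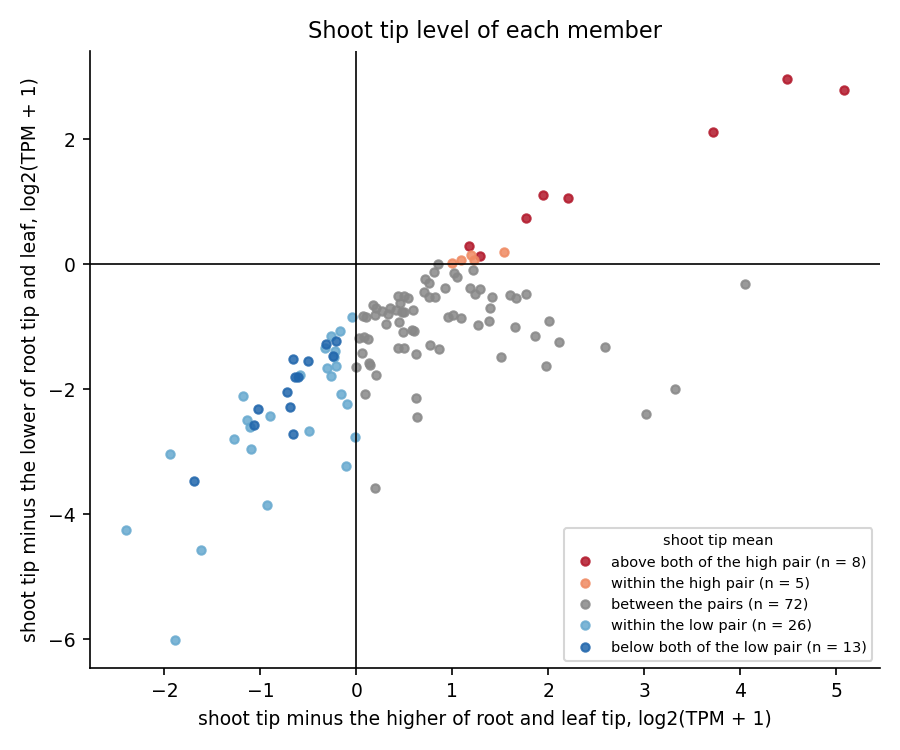
Shoot tip level of each of the 124 genes on the log2(TPM + 1) scale, relative to the higher of the root and leaf tip means (horizontal) and to the lower of the root tip and leaf means (vertical), with colours for the position of the shoot tip mean. Most points (72, grey) lie right of the vertical zero line and under the horizontal one, between the pairs, and 8 genes (dark red) are above both high tissues.

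The shoot tip was next compared with each of the other 4 tissues. These comparisons share the shoot tip libraries, and in each the other tissue was selected as high or low by the choice of genes. A lower level than in the tissues selected as high, or a higher level than in those selected as low, is therefore partly fixed, and the counts are set beside those over all tested genes.

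In shoot tip against root, 55 of the 124 genes were higher and 6 lower in shoot tip, against 25.4% and 16.8% of all tested genes. The median log2 difference was 0.78 over the 124 genes and 0.29 over all tested genes. RT_TRINITY_DN3175_c0_g2 held 365.42, 361.41 and 360.43 TPM in shoot tip, against 0.7, 0.98 and 3.76 TPM in root, the last in replicate 3 (log2 fold change 7.17, SE 0.26, limma adjusted p = 6.5e-12). It was thus higher in the shoot tip than in root tip (55.8, 56.24 and 56.79 TPM) and leaf (55.19, 51.26 and 49.62 TPM) as well. LE_TRINITY_DN4228_c0_g1 averaged 57.8 ± 3.31 TPM in shoot tip and 0.487 ± 0.35 TPM in root (SD, n = 3; log2 fold change 5.33, limma adjusted p = 8.8e-11). In the other direction, RO_TRINITY_DN6732_c0_g1 held 2.17, 2.71 and 3.02 TPM in shoot tip, against 15.09, 14.54 and 24.77 TPM in root, the highest in replicate 3 (log2 fold change -2.36, SE 0.17, limma adjusted p = 1.1e-08). LA_TRINITY_DN4255_c0_g10 averaged 12 ± 0.247 TPM in shoot tip and 40.9 ± 8.54 TPM in root (log2 fold change -1.67, limma adjusted p = 1.0e-09). With a pseudocount of 5 the counts were 32 higher and 3 lower.

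In shoot tip against leaf tip, 52 of the 124 genes were higher and 7 lower in shoot tip. Over all tested genes 6.35% were higher and 2.32% lower. The median log2 difference was 0.79 over the 124 genes and 0.02 over all tested genes. RT_TRINITY_DN23089_c0_g1 held 130.47, 133.26 and 134.38 TPM in shoot tip, against 0.29, 0.88 and 0.87 TPM in leaf tip (log2 fold change 6.34, SE 0.17, limma adjusted p = 3.5e-12). Its shoot tip level lay under the 165.4 ± 3.77 TPM of leaf and the 408.3 ± 1.28 TPM of root tip. RT_TRINITY_DN3175_c0_g2 held 8.63, 10.01 and 10.56 TPM in leaf tip, far below its shoot tip values (log2 fold change 5.09, limma adjusted p = 2.2e-09). LE_TRINITY_DN1040_c0_g1 went the other way, with 4.99, 4.77 and 4.42 TPM in shoot tip and 16.22, 15.93 and 17.71 TPM in leaf tip (log2 fold change -1.62, SE 0.06, limma adjusted p = 1.5e-10). SHA_TRINITY_DN3082_c0_g1 averaged 7.26 ± 0.613 TPM in shoot tip and 17.3 ± 0.252 TPM in leaf tip (log2 fold change -1.15, limma adjusted p = 1.7e-09). A pseudocount of 5 left 25 genes higher and 1 lower, and SHA_TRINITY_DN3082_c0_g1 was then under 2-fold at a log2 fold change of -0.86.

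In shoot tip against root tip, 3 of the 124 genes were higher and 82 lower in shoot tip, against 11.2% and 9.54% of all tested genes. The median log2 difference was -1.38 over the 124 genes and 0.17 over all tested genes. RT_TRINITY_DN10519_c0_g1 held 0.67, 0.5 and 0.62 TPM in shoot tip, against 187.65, 185.32 and 191.02 TPM in root tip (log2 fold change -6.89, SE 0.14, limma adjusted p = 7.9e-14). Its shoot tip libraries overlapped with those of root (0.61, 0.63 and 0.05 TPM), and leaf tip was higher at 5.95, 4.63 and 4.14 TPM. LE_TRINITY_DN1040_c0_g1 also had a low shoot tip level, 4.73 ± 0.287 TPM, against 292.8 ± 3.1 TPM in root tip (SD, n = 3; log2 fold change -5.68, limma adjusted p = 2.6e-16). The genes called higher with the largest differences were LE_TRINITY_DN4228_c0_g1 (log2 fold change 2.96, SE 0.25, limma adjusted p = 1.3e-07) and RT_TRINITY_DN3175_c0_g2 (log2 fold change 2.67, SE 0.26, limma adjusted p = 7.7e-07). LE_TRINITY_DN4228_c0_g1 held 61.23, 54.64 and 57.43 TPM in shoot tip, against 6.88, 6.1 and 6.62 TPM in root tip.

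In shoot tip against leaf, 5 of the 124 genes were higher and 80 lower in shoot tip, against 26.8% and 10.3% of all tested genes. The median log2 difference was -1.33 over the 124 genes and 0.48 over all tested genes. RT_TRINITY_DN10519_c0_g1, at 103.53, 101.69 and 100.54 TPM in leaf, had the lowest difference (log2 fold change -6.01, SE 0.14, limma adjusted p = 7.7e-14). LE_TRINITY_DN49706_c0_g1 held 4.33, 5.03 and 4.27 TPM in shoot tip, against 154.58, 149.55 and 150.14 TPM in leaf (log2 fold change -4.78, SE 0.06, limma adjusted p = 2.2e-16). In root it was at 4.15, 3.52 and 3.9 TPM, close to the shoot tip, and in leaf tip at 0.05, 0 and 0 TPM. LE_TRINITY_DN4228_c0_g1 was higher in shoot tip than in leaf, where it averaged 7.3 ± 1.77 TPM (log2 fold change 2.84, limma adjusted p = 1.1e-07). RT_TRINITY_DN3175_c0_g2 was higher as well (log2 fold change 2.78, limma adjusted p = 2.9e-07). The 5 genes higher in shoot tip became 3 with a pseudocount of 5, and 3 under quantile normalization or median-ratio scaling.

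**Figure D4:**
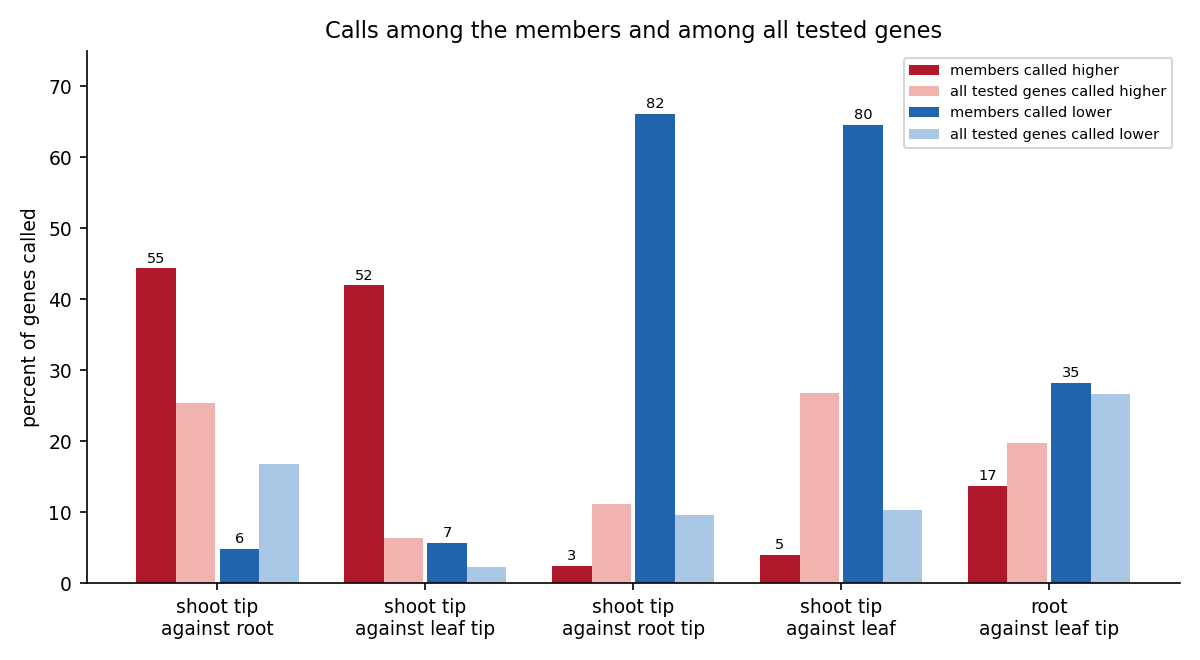
Percent of the 124 genes (dark bars, with the number of genes above) and of all 39490 tested genes (light bars) called higher (red) or lower (blue) in the first-named tissue of each comparison. The bars for the 124 genes are tallest for lower in shoot tip than in root tip (82 genes) and than in leaf (80 genes), tissues in which the genes were selected as high.

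The scale of the libraries bears on these counts. The median log2 difference over all tested genes shifted under median-ratio scaling by -0.27 in shoot tip against root, -0.17 against root tip, -0.46 against leaf and 0.0031 against leaf tip. The shifts under quantile normalization were -0.11 against root, -0.10 against root tip, -0.42 against leaf and -0.04 against leaf tip. Under all 3 scalings 44 of the 124 genes were called higher than root, 46 higher than leaf tip, 81 lower than root tip and 79 lower than leaf. In shoot tip against root the median log2 difference under median-ratio scaling was 0.47 over the 124 genes and 0.01 over all tested genes.

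Root and leaf tip, the tissues selected as low, were called different in 52 of the 124 genes (41.9%), against 46.3% of all tested genes. The rule used only the higher of these means, and root was the higher in 62 genes and leaf tip in 62. It thereby kept both means low without setting which was higher. Values of both tissues thus entered the choice, and the calls and p-values between them are partly shaped by it. In root against leaf tip, 17 of the 124 genes were higher and 35 lower in root, against 19.7% and 26.6% of all tested genes. The median log2 difference was 0.00 over the 124 genes and -0.26 over all tested genes. By means, root was at least 2-fold above leaf tip in 28 genes (22.6%, against 24.7% of all tested genes) and at least 2-fold below in 40 (32.3%, against 35.5%). The gap was 5-fold or more with root higher in 15 (12.1%, against 15.3%) and with root lower in 23 (18.6%, against 16.1%). LE_TRINITY_DN1040_c0_g1 held 0.36, 0.21 and 0.14 TPM in root, against 16.22, 15.93 and 17.71 TPM in leaf tip (log2 fold change -3.84, SE 0.06, limma adjusted p = 1.1e-15). LA_TRINITY_DN366_c0_g3 held 0.07, 0.11 and 0.15 TPM in root, against 13.13, 12.28 and 12.42 TPM in leaf tip (log2 fold change -3.62, SE 0.05, limma adjusted p = 5.7e-17). In the rest of the plant LA_TRINITY_DN366_c0_g3 was nearly even, with 32.3 ± 0.911 TPM in shoot tip, 32 ± 0.569 TPM in root tip and 29.4 ± 0.734 TPM in leaf (SD, n = 3 each).

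RO_TRINITY_DN6732_c0_g1 was higher in root, at 15.09, 14.54 and 24.77 TPM, than in leaf tip, at 2.3, 1.39 and 1.73 TPM (log2 fold change 2.74, SE 0.17, limma adjusted p = 1.8e-09). It averaged 68.4 ± 2.7 TPM in root tip and 68.6 ± 4.83 TPM in leaf. LE_TRINITY_DN2673_c0_g1 held 11.3, 10.11 and 16.93 TPM in root, against 4.39, 4.1 and 4.82 TPM in leaf tip (log2 fold change 1.31, SE 0.13, limma adjusted p = 3.0e-07). In both genes root replicate 3 was the highest root library, and the other root libraries also lay above all leaf tip libraries. Of the calls in root against leaf tip 32.7% were higher in root as deposited and 45.3% after median-ratio scaling (24 higher and 29 lower), where the median over all tested genes shifted by 0.26. With a pseudocount of 5 there were 4 higher and 16 lower, and LE_TRINITY_DN2673_c0_g1 was under 2-fold at a log2 fold change of 0.90.

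**Figure D5:**
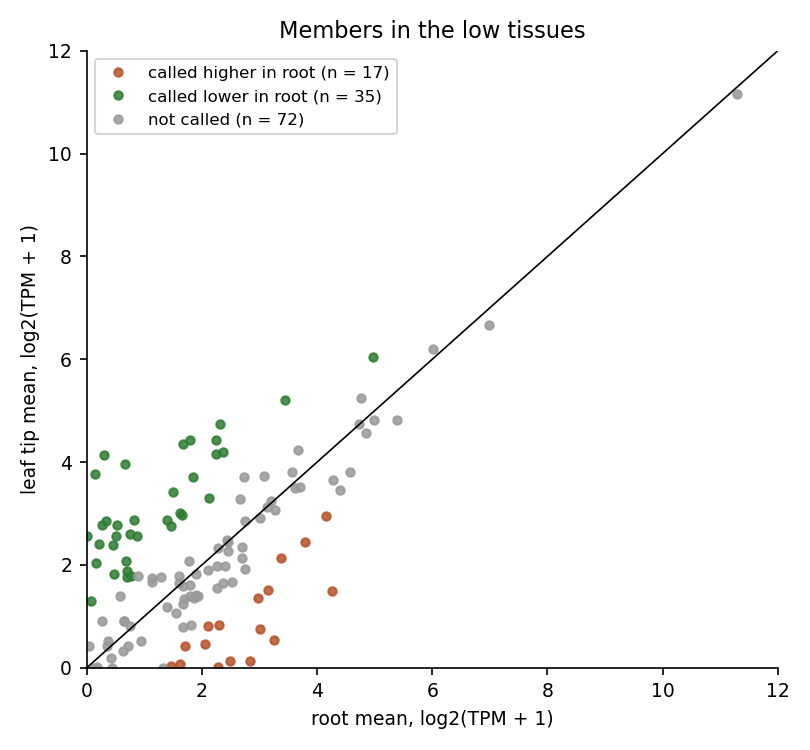
Root mean (horizontal) and leaf tip mean (vertical) of each of the 124 genes as log2(TPM + 1), with the line of equal levels. The 17 genes called higher in root (brown) and the 35 called lower in root (green) lie below and above the line in that order, and 72 genes were not called; the point at the upper right is LE_TRINITY_DN17701_c3_g1, at 2508 TPM in root and 2286 TPM in leaf tip.

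Root replicate 3 differed from the other root libraries among these genes too. Of the 88 genes with a root mean of 1 TPM or more, 9 were over 2-fold higher and 5 over 2-fold lower in replicate 3 than in the mean of replicates 1 and 2, while 0 differed by over 2-fold between replicates 1 and 2. The same counts over all tested genes were not made. The median SD of log2(TPM + 1) over the 124 genes was 0.05 in root tip and in leaf, 0.24 in root, 0.09 in leaf tip and 0.08 in shoot tip. Over all tested genes it was 0.08 in root tip, 0.07 in leaf, 0.15 in root, 0.08 in leaf tip and 0.09 in shoot tip. The 124 genes were chosen by their levels in these tissues except shoot tip, and the SD may depend on level. Choosing genes without root replicate 3 gave 130 genes, of which 118 were among the 124.

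The identifiers carry a prefix equal to a tissue code of the table. The prefix itself was not used in the choice. It may still follow the tissues in which a gene is high, which were used, so the shares below are a description. Of the 124 genes 39 (31.5%) had the root tip prefix and 37 (29.8%) the leaf prefix, against 17.9% and 13.8% of all tested genes. The root prefix was held by 8 genes (6.45%, against 22% of all tested), the leaf tip prefix by 20 (16.1%, against 24.4%) and the shoot tip prefix by 20 (16.1%, against 21.9%). In the mirror pattern described next, 35.1% of the genes had the root prefix and 21.9% the leaf tip prefix. The identifiers also name the assembly cluster. No cluster held more than 1 of the 124 genes, and 110 of them were alone in their cluster. The clusters of the other 14 held 18 further identifiers, of which 14 passed the filter for testing. These 14 were searched for 1 TPM or more in root tip and leaf, with root tip at least 2-fold above root and leaf above leaf tip. LE_TRINITY_DN1040_c0_g4 met this, 1 of the 14 (7.14%), against 1.7% of all tested genes. With so few identifiers these shares cannot be compared. LE_TRINITY_DN1040_c0_g4 averaged 3.3 TPM in root tip and 7.11 TPM in leaf, against 0.587 TPM in root and 1.97 TPM in leaf tip. It comes from the cluster of LE_TRINITY_DN1040_c0_g1. In contrast RT_TRINITY_DN604_c0_g2, another identifier beside one of the 124, averaged 86 TPM in root tip and was listed at 0 in leaf. Both were picked out after their values were seen.

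The mirror pattern, high in root and leaf tip and low in root tip and leaf by the same rule, was met by 114 genes. The selection was thus of nearly the same size, and the ratios of the 124 genes were larger, with 14 against 2 genes at a ratio of 10 or more and a median of 3.07 against 2.26. One of these 2 mirror genes, LA_TRINITY_DN9495_c0_g1, picked out after its values were seen, held 0.33, 0.42 and 49.02 TPM in root, the last in replicate 3. Without root replicate 3 the counts at a ratio of 10 or more were 18 of 130 genes against 1 of 141 mirror genes, with medians of 2.91 and 2.27. These ratios chose the genes and were not tested. The shoot tip mean lay above or within the high pair in 8 and 5 of the 124 genes, against 16 and 33 of the 114 mirror genes. It lay within or below the low pair in 26 and 13 of the 124 genes, against 4 and 3 of the 114. These shoot tip counts were not redone without root replicate 3. Choosing without that library kept 118 of the 124 genes and 104 of the 114 mirror genes. LA_TRINITY_DN9495_c0_g1, 1 of the 16 mirror genes with shoot tip above both, reached 5 TPM in root only through that library. Leaf tip belongs to the low tissues of the 124 genes and to the high tissues of the mirror genes. Over all tested genes it was also the tissue most correlated with shoot tip (Pearson r = 0.95 between tissue means as log2(TPM + 1)). Over the 124 genes themselves r with shoot tip was 0.73 for leaf tip and 0.71 for root tip. The difference between these sets was not tested. Their balance depended on the scaling, since median-ratio scaling before the choice gave 199 genes high in root tip and leaf, of which 106 were among the 124, and 38 mirror genes, of which 32 were among the 114. Quantile normalization gave 159 genes, with 107 among the 124, and 68 mirror genes, with 59 among the 114.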

How the data were processed

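Values were taken from 1 table of TPM that the authors deposited, with 88641 genes in 15 libraries. Per the submitters' processing notes, RSEM 1.3.2, Bowtie2 2.3.4.3 and Trim Galore 0.5.0 were used; settings are not given in the sources used here. The deposited TPM values sum to 999999.03 to 1000000.65 per library, so depth is unknown and no counting interval is given. An exact 0 can be a failed estimate. Columns were joined to libraries by sample description; the leaf columns match the leaf group only and are called replicate a, b and c.

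The 39490 genes that reached 1 TPM in 3 libraries were fitted as log2(TPM + 1), which understates the change of low genes, with limma 3.58.1 in R 4.3.3 (empirical Bayes with intensity trend, 1 mean per tissue, 10 residual degrees of freedom). Calls needed a Benjamini-Hochberg adjusted p under 0.05 over all tested genes and a log2 fold change of at least 1. The fit was also run on simulated data in which each gene had the same spread in all tissues. Root had a larger spread here, so that run does not show how the fit behaves with these libraries. Named genes are the 2 with the largest ratio, the 2 with the highest level and, per tested comparison, the 2 largest and 2 lowest fold changes among calls whose replicates do not overlap and whose higher tissue averages 10 TPM or more, plus the genes at the edge of the rule. The genes and these rules were chosen with earlier results of these data known. Alternatives were pseudocounts, filters, scalings, other cut-offs of the rule, no trend, a replicate block and leaving out each library. Figures used matplotlib 3.10.9.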

Additional observations from a re-analysis of the deposited data

How the results depend on the processing

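The depth behind the TPM values is unknown, so the precision of low values is limited by an amount that cannot be stated. The number of genes chosen was 64 with a ratio of at least 3, 265 with one of at least 1.5, and 199 after median-ratio scaling. The mirror pattern gave 19, 262 and 38 genes, 70 with a mean of at least 10 TPM and 68 after quantile normalization. These cut-offs apply to the means without the added 0.1 TPM, so the 64 differs from the 63 genes given further up. Leaving out 1 library at a time gave 121 to 130 genes and 96 to 141 mirror genes. A pseudocount of 5 gave 32 genes higher and 3 lower in shoot tip than root, 25 higher and 1 lower than leaf tip, 3 higher than leaf, and 4 higher and 16 lower in root than leaf tip. Median-ratio scaling and quantile normalization each gave 3 genes higher in shoot tip than leaf. With 1 library left out, the counts were 54 to 59 higher and 4 to 6 lower than root, 48 to 53 higher and 7 lower than leaf tip, 3 higher and 80 to 84 lower than root tip, 5 higher and 79 to 82 lower than leaf, and 17 to 19 higher and 33 to 36 lower in root than leaf tip. The causes were not tested. Of 20 fold changes of named genes, 2 fell under 2-fold with a pseudocount of 5 in the 472 alternatives run. None reversed, but this was largely fixed beforehand, as these genes were picked for extreme fold changes and replicates that do not overlap. Leaving out a library, pseudocounts, filters, the trend and the block could not reverse their sign. Same-numbered libraries did not deviate together (r = -0.015 to 0.0238). With the replicate number as a block, over the 12 libraries without leaf, the counts were 55 and 6, 52 and 7, 3 and 82, and 17 and 35 for shoot tip against root, leaf tip and root tip and root against leaf tip. Each replicate number occurs once in each of these tissues, so the block could alter only the p-values and not the fold changes.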
